A study of Mus musculus with 10 samples.

Results

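The cytosolic ribosomal protein genes, which encode the proteins of the ribosomes that translate nuclear mRNAs, were examined in mouse femur after hindlimb unloading. A gene belonged to the group when its name in the scanner files was Rps or Rpl with a number, with or without a suffix for a paralog, or Rplp0, Rplp1 or Rplp2. The rule found 80 genes among 19505 genes with a symbol, 31 of the small subunit and 49 of the large subunit, and they were covered by 133 of 41174 gene probes. All 133 probes passed the filter on dim probes. The unloaded group held 5 male ICR mice aged 6 months that had hung by the tail, head down, for 24 h so that the hind legs bore no weight. The control group held 5 male ICR mice of the same age that walked freely in their cages, and each animal gave RNA of a femur to 1 single-colour Agilent array. Body weight averaged 27.3 ± 1.72 g in unloaded mice and 28.6 ± 1.78 g in control mice (SD, n = 5 each). Suspension takes the load off the hind limb as a whole and tilts the body, so the group differs from controls in posture and fluid distribution as well as in load on bone.

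A ribosome has a small subunit, which reads the mRNA, and a large subunit, which joins the amino acids, and each carries its own set of proteins around ribosomal RNA. Cells keep the proteins close to equal amounts. In mammals many of the mRNAs start with a terminal oligopyrimidine (TOP) tract, a C followed by a run of C and T, through which the kinase mTOR sets their translation. That control acts on ribosome loading, so an array of total RNA measures the mRNA level and not the output of protein. Ribosomal protein mRNA is abundant in growing and secreting cells, among them the osteoblasts and the blood-forming marrow cells of a femur.

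The TOP tract was looked for in the start regions that RefSeq lists on GRCm38.p6, which were at hand for 60 of the 80 genes. Each window below runs from 10 bases before the listed start to 20 bases from it, 30 bases in all, and capitals mark the longest run that begins with C and continues with C or T. The first 6 are from genes that the results turn on, Rplp2 is from the stalk, and Rpl3l and Rps27l are paralogs whose tract is short or lies before the listed start.
Rps19, chr7:24884903-24884932, plus strand: agcggggtgtggagggCTCTCCCacgcggt
Rps18, chr17:33955646-33955675, minus strand: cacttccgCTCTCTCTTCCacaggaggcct
Rps6, chr4:86857348-86857377, minus strand: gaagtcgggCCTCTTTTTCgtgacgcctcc
Rpl27a, chr7:109519185-109519214, plus strand: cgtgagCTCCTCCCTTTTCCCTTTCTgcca
Rpl7a, chr2:26910797-26910826, plus strand: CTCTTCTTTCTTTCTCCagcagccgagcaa
Rpl38, chr11:114668570-114668599, plus strand: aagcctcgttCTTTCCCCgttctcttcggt
Rplp2, chr7:141447641-141447670, plus strand: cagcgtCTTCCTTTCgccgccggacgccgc
Rpl3l, chr17:24727816-24727845, plus strand: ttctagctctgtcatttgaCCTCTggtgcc
Rps27l, chr9:66946076-66946105, plus strand: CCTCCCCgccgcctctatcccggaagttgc
A tract of at least 7 bases lay in this window in 28 of the 60 genes (46.7%), against 2462 of the 15020 tested genes with a listed start (16.4%). Such a tract could begin anywhere in the window, so it need not be a TOP tract at the first base of the mRNA. A gene with several starts counted when any of its windows held a tract, and for the motifs below when any of its promoters held the motif. The tract had 11 bases in Rps18 and 20 bases in Rpl27a, and 5 bases in Rpl3l. In the 300 bases of the promoter, on either strand, the ETS-type motif CCGGAAG stood in 38.3% of the ribosomal protein genes and 14.5% of all tested genes. The YY1-type motif GCCATNTT stood in 12 of the 60 ribosomal protein genes and in 8.0% of all tested genes, and TATAAA in 11.7% and 13.1%. A match is a description of these letters, and no binding was measured.

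All array values below are log2 processed signals relative to the 75th percentile of the same array, and differences are unloaded minus control on that scale. The share of spots well above background ran from 89.8% to 95.5% over the arrays, no gene probe was saturated, and 132 of the 133 ribosomal protein probes were well above background on all 10 arrays. The arrays came from 3 slides. Slide 1 held controls 1 to 4, slide 2 held unloaded 1 to 3 with control 5, and slide 3 held unloaded 4 and 5, so slide and group can be told apart only on slide 2, with a single control. Markers of osteoblasts and osteocytes were present, with a mean level of 3.27 ± 0.12 in unloaded and 3.13 ± 0.09 in control femurs over 13 genes (SD, n = 5 each). Markers of neutrophils and their precursors were present, at 4.54 ± 0.08 in unloaded and 4.59 ± 0.18 in control femurs over 12 genes, and the labels mention no removal of marrow. Chondrocyte markers averaged 2.79 ± 0.30 in unloaded and 2.53 ± 0.30 in control femurs, with all 11 genes at a positive difference. Adipocyte markers averaged 1.88 ± 0.26 in unloaded and 2.09 ± 0.39 in control femurs, with 0 of 9 genes positive, monocyte and macrophage markers 1.91 ± 0.18 in unloaded and 2.12 ± 0.10 in control femurs, with 2 of 9 positive, and proliferation genes 2.56 ± 0.11 in unloaded and 2.72 ± 0.08 in control femurs, with 5 of 18 positive. T and NK cell markers averaged −0.30 ± 0.06 in unloaded and −0.45 ± 0.09 in control femurs, with 11 of 13 positive. B cell markers averaged 1.43 ± 0.17 in unloaded and 1.58 ± 0.10 in control femurs, with 4 of 14 positive. Positive differences were seen in 12 of 13 osteoblast and osteocyte markers, 6 of 12 neutrophil markers and 7 of 9 osteoclast markers. They were seen in 4 of 11 erythroid, 2 of 9 endothelial and 3 of 17 skeletal muscle markers. No gene of any of these lists passed the test, and their part in the results was not tested. In such a mixed tissue, fewer cells of a type and less RNA per cell cannot be told apart.

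No ribosomal protein gene passed the test for a difference between unloaded and control femurs. None of the 80 genes and none of the 133 probes passed an adjusted p below 0.05 (limma, Benjamini-Hochberg adjustment over all 38629 tested probes), against 0.00528% of all tested genes and 0.00259% of all tested probes, in both cases the single gene Ddit4. Adjusted p-values of the 80 genes ran between 0.218 and 0.995. At an unadjusted p below 0.05 there were 2 genes higher, Rps19 and Rps18, and 1 lower, Rpl27a, or 3.75% of the group against 15.8% of all tested genes (9.9% higher and 5.87% lower). The median difference was 0.04 over the 80 genes and 0.05 over all tested genes, and 49 of the 80 differences were positive (61.3%) against 60.4% of all tested genes. With scaling to the array median, which lowers the differences of all genes alike, 21 of the 80 were positive (26.2%) against 41.8% of all tested genes, with medians of −0.05 and −0.04. With scaling to the spike-in RNAs 11 of the 80 were positive (13.8%) against 29.1% of all tested genes, with medians of −0.11 and −0.10. Without control 4, 33 of the 80 were positive, with a median of −0.03 against 0.05 over all tested genes. Without unloaded 1, 57 were positive, with medians of 0.09 and 0.06, and without control 3, 58 were positive, with medians of 0.08 and 0.05. The median was 0.01 without unloaded 2 and 0.01 without unloaded 4. With slide as a block, 9 of the 80 were positive, with a median of −0.15 against −0.01 over all tested genes, and none passed the test. That fit sets unloaded 1 to 3 against control 5 alone, whose mean over the genes, 5.39, was the highest of the 10 arrays.

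**Figure D1:**
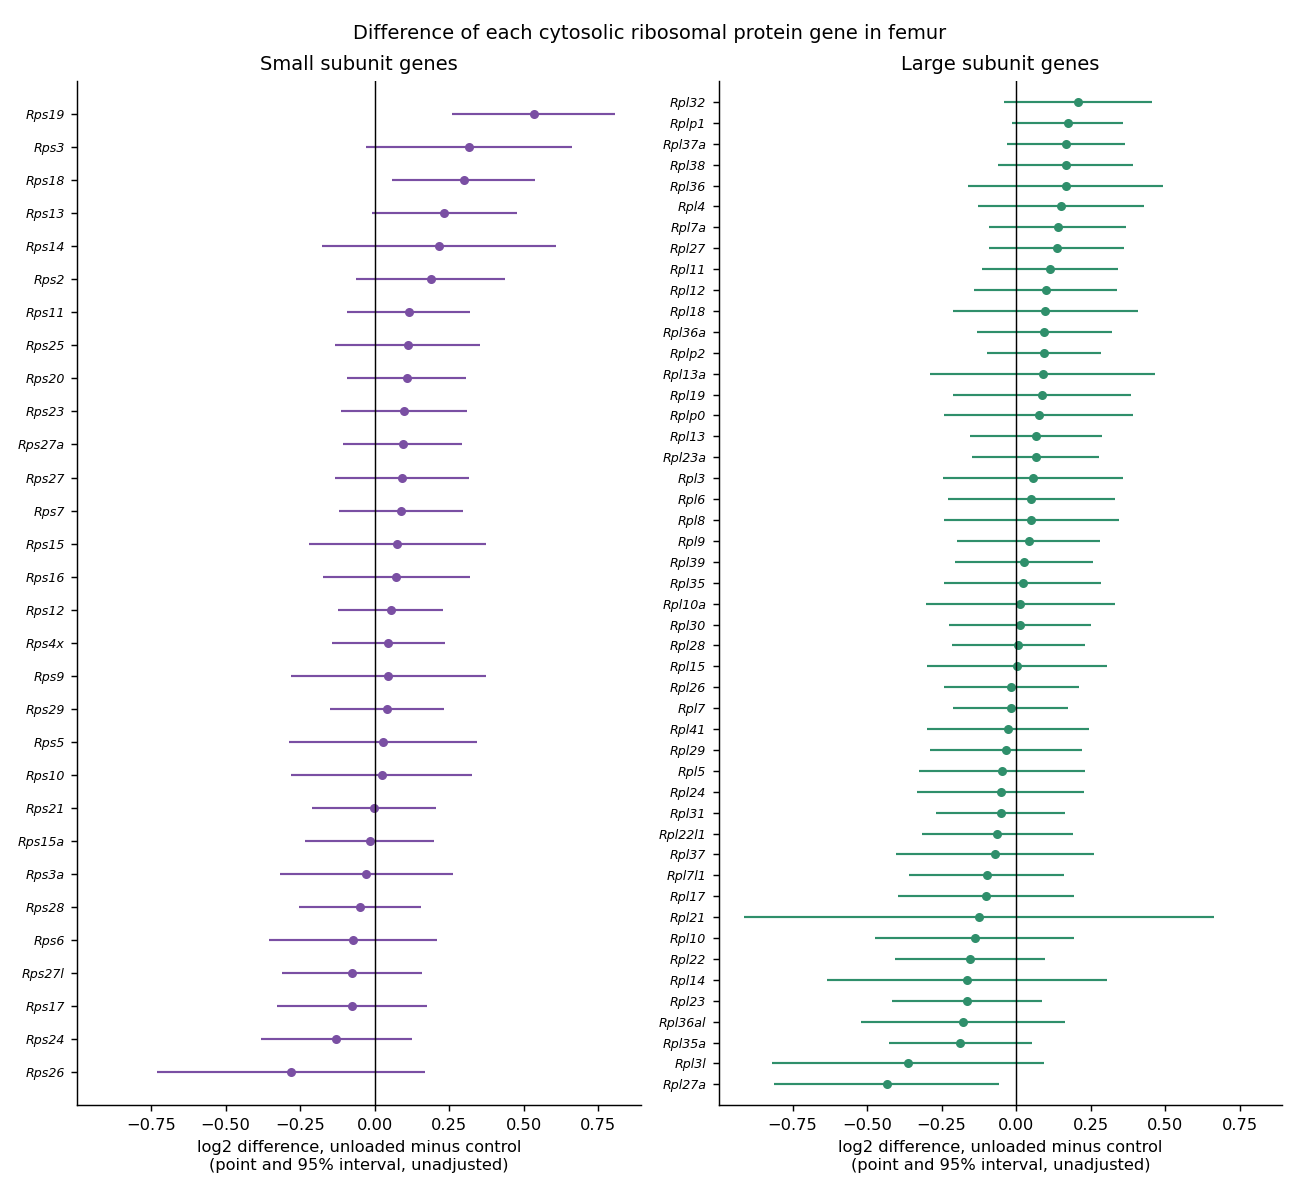
Log2 difference, unloaded minus control, of 30 small subunit genes (left panel) and 48 large subunit genes (right panel), ordered by size, with points for the limma estimate and lines for its unadjusted 95% interval. The intervals of Rps19, Rps18 and Rpl27a leave out 0.

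The intervals of the main fit measure the spread between animals and do not cover shifts with slide or scaling. Spike-in scaling moved the median of all genes by −0.16, and the median of the 80 genes was −0.15 with slide as a block. The 95% interval of the difference lay within 0.5 log2 units of 0 for 70 of the 80 genes and within 1 log2 unit for all 80, with a median distance of 0.25 from the estimate to the edge of its interval. The SD within a group had a median of 0.183 over the 80 genes and 0.186 over all tested genes. It was 0.169 over the 393 tested genes at or above the lower quartile of signal of the 80 genes. The member probe of Rplp0 was spotted 10 times on each array, and its spots had SDs between 0.065 and 0.11 log2 units within an array, against SDs of 0.17 between unloaded and 0.32 between control animals.

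The small subunit genes sat slightly higher relative to the large subunit genes in the 5 unloaded femurs than in the 5 control femurs. Over the 77 genes measured on every array, the 30 small subunit genes had mean levels of 5.64, 5.93, 5.84, 5.89 and 5.87 in unloaded mice 1 to 5, against 5.78, 5.71, 5.87, 5.56 and 5.89 in control mice 1 to 5. The 47 large subunit genes had mean levels of 4.73, 5.02, 4.91, 5.00 and 4.88 in unloaded mice, against 4.90, 4.83, 5.07, 4.68 and 5.06 in control mice. In both subunits the groups overlapped, with unloaded 1 and control 4 the lowest of their groups.

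The small subunit mean was 5.83 ± 0.11 in unloaded and 5.76 ± 0.13 in control femurs (SD, n = 5 each), a difference of 0.07 that became −0.09 with spike-in scaling and −0.09 with slide as a block. The large subunit mean was 4.91 ± 0.11 in unloaded and 4.91 ± 0.17 in control femurs, a difference that became −0.16 with spike-in scaling and −0.18 with slide as a block. Among single genes, 21 of 31 small subunit genes and 28 of 49 large subunit genes had a positive difference, with medians of 0.05 and 0.01.

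Any scaling of a whole array cancels in the small subunit mean minus the large subunit mean of that array. This quantity was 0.91, 0.91, 0.93, 0.90 and 0.99 in unloaded mice 1 to 5, against 0.88, 0.88, 0.80, 0.88 and 0.83 in control mice 1 to 5. All 5 unloaded values lay above all 5 control values, though the closest pair, unloaded 4 and control 4, differed by little. The means were 0.93 ± 0.04 in unloaded and 0.85 ± 0.04 in control femurs (SD, n = 5 each), a difference of 0.07, which was 0.09 on slide 2. The genes were chosen with results of these data known, so no p-value is given for this mean.

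The separation of the arrays depended on which genes and which normalization entered it. With quantile normalization the difference was 0.05 and 2 of 5 unloaded arrays lay above every control, and with cyclic loess it was 0.06 with 3 of 5. Without Rps19 it was 0.06 with 4 of 5, and without the 5 paralog genes 0.06 with 3 of 5. Small subunit genes were brighter, with a median level of 6.11 against 5.27 for large subunit genes, each gene read at its brightest probe. Among the genes at or above the median signal of all 80 genes, 18 small and 19 large, the difference was 0.02 with 2 of 5 unloaded arrays above every control. Among the genes below it, 12 small and 28 large, it was 0.07 with 3 of 5. The part of probe brightness in the separation was not tested beyond these values.

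**Figure D2:**
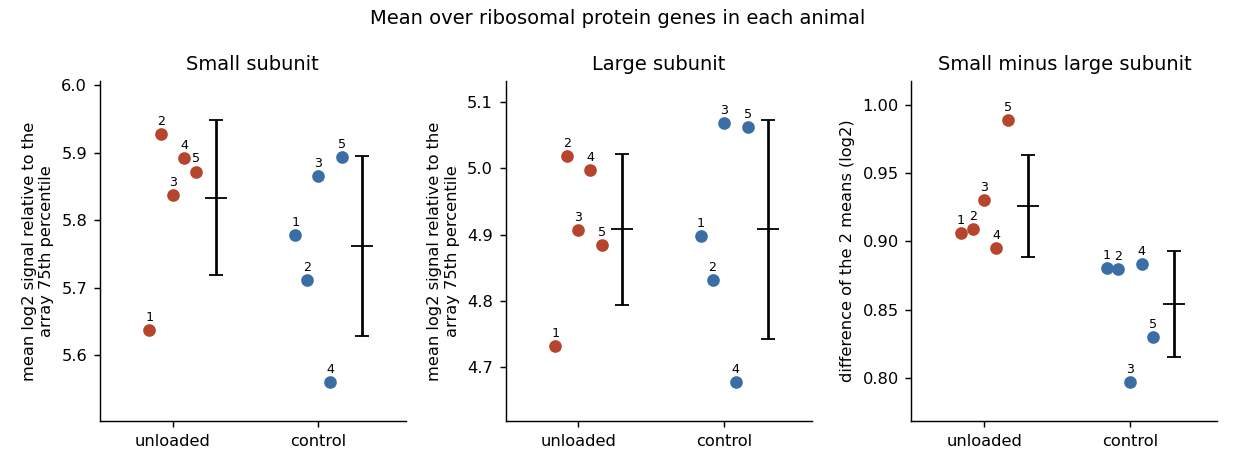
Mean log2 signal relative to the array 75th percentile over 30 small subunit genes (left) and 47 large subunit genes (middle), and the first mean minus the second (right), for each unloaded mouse (red, left in each panel) and each control mouse (blue), numbered 1 to 5; black bars give mean and SD. The groups overlap in the first and second panels, and the 5 unloaded values lie above the 5 control values in the third, at 0.90 to 0.99 against 0.80 to 0.88.

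Among small subunit genes, Rps19 had the largest positive difference. Rps19 encodes a protein of the small subunit head that is needed to mature its ribosomal RNA, and its human gene is the one most often mutated in Diamond-Blackfan anaemia. The brightest Rps19 probe read 4.83, 5.15, 5.06, 5.36 and 5.41 in unloaded mice 1 to 5, against 4.66, 4.76, 4.66, 4.31 and 4.74 in control mice 1 to 5. All unloaded values were above all control values, which held for 1 of the 80 genes, against 1.5% of all tested genes. No gene of the group had all unloaded values below all controls, against 1.8% of all tested genes. Its difference was 0.53 (SE 0.13), or 1.45-fold, with an unadjusted p of 0.000975 and an adjusted p of 0.218. Adjusted p-values of Rps19 ran between 0.110 and 0.9999 over the alternatives, and with slide as a block the difference was 0.27.

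The other probes of Rps19 did not all show that difference. The probe on the RefSeq mRNA, dimmer than the first, read 0.85, 1.25, 1.29, 1.13 and 1.26 in unloaded mice and 1.26, 1.08, 1.28, 0.94 and 1.33 in control mice, a difference of −0.02 with overlapping groups. The dimmest probe, at a mean level of −3.39, differed by 0.36 (SE 0.21) with overlapping groups. The brightest and the dimmest probe were designed on other cDNA clones, and the mean over the 3 probes differed by 0.29.

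Rps18, a head protein of the small subunit that contacts the large subunit, read 7.41, 7.51, 7.71, 7.56 and 7.87 in unloaded mice, against 7.30, 7.22, 7.35, 7.16 and 7.54 in control mice. Control 5 lay within the unloaded range, and the other controls lay below it. The difference was 0.30 (SE 0.11, adjusted p = 0.262), it was 0.13 at a second RefSeq probe and −0.24 at a dim probe on another clone, and it was 0.0035 with slide as a block. Rps3, which lines the channel where mRNA enters and also acts in DNA repair, read 5.92, 6.11, 6.34, 6.24 and 6.74 in unloaded mice and 5.97, 5.73, 6.12, 5.65 and 6.31 in control mice. The groups overlapped, with a difference of 0.32 (SE 0.16, adjusted p = 0.335) that was −0.19 with slide as a block.

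Rps13 and Rps14 followed by size, with differences of 0.23 (SE 0.11) and 0.22 (SE 0.18). Both turned negative with slide as a block, at −0.16 and −0.15. A dim second Rps13 probe differed by −0.17 (SE 0.09), with a sign opposite to that of the brighter probe. Loss of 1 copy of human RPS14 is tied to the anaemia of the 5q− syndrome. Rps27, a zinc finger protein of the small subunit, differed by 0.09 and was −0.00258 with scaling to the array median.

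Rps6, the small subunit protein that S6 kinase phosphorylates downstream of mTOR, read 4.44, 4.92, 4.72, 4.85 and 4.75 in unloaded mice, against 4.85, 4.76, 5.18, 4.49 and 4.76 in control mice. The groups overlapped fully, with a difference of −0.07 (SE 0.13, adjusted p = 0.772). A dim second Rps6 probe differed by 0.29 (SE 0.12, adjusted p = 0.287), so that its sign was opposite. The array reads Rps6 mRNA and not the phosphorylated protein.

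Rps26, a protein at the exit of the mRNA channel, had the most negative difference of the small subunit. It read 4.11, 4.79, 4.09, 4.50 and 3.42 in unloaded mice and 4.34, 4.55, 4.72, 4.12 and 4.59 in control mice. Unloaded 5 was the lowest of all 10 arrays, and the groups overlapped. The difference was −0.28 (SE 0.21, adjusted p = 0.474), and −0.09 without unloaded 5. Rps24, another gene mutated in human Diamond-Blackfan anaemia, differed by −0.13 (SE 0.12).

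**Figure D3:**
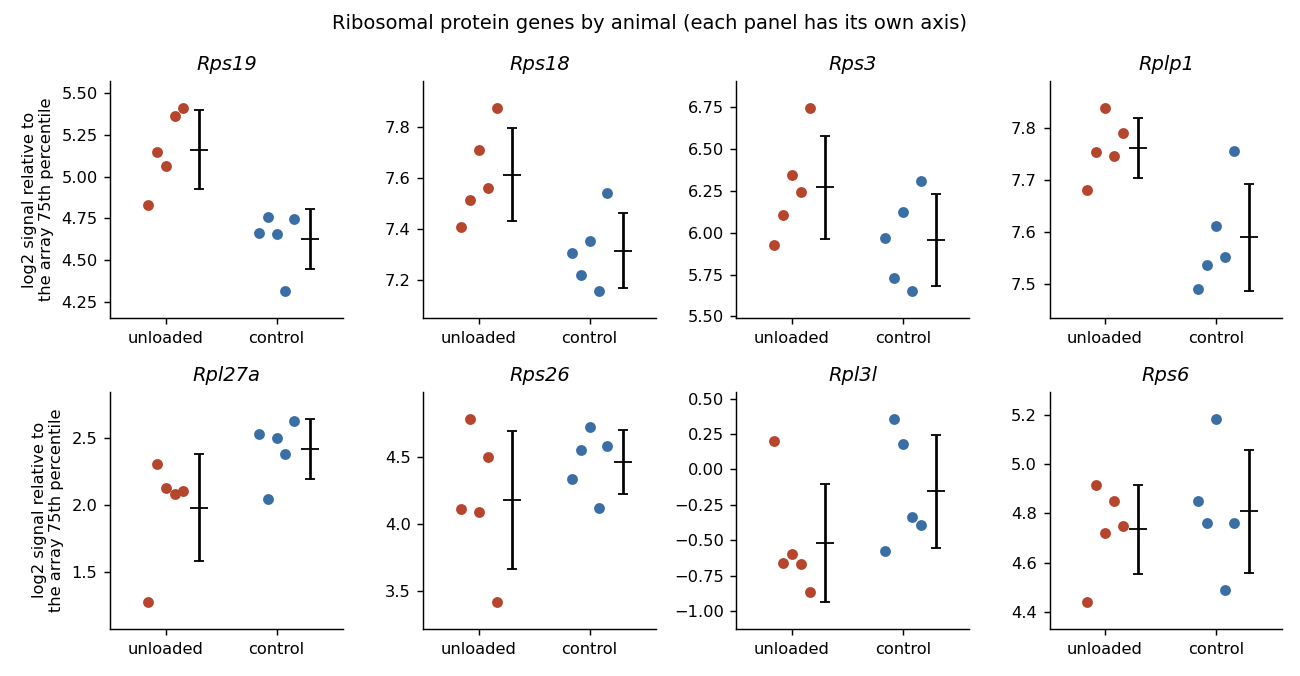
Log2 signal relative to the array 75th percentile of the brightest probe of 8 genes in each unloaded mouse (red, left in each panel) and each control mouse (blue), with black bars for mean and SD; each panel has its own vertical axis. Rps19 is the gene whose unloaded values, 4.83 to 5.41, all lie above its control values, 4.31 to 4.76.

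Among large subunit genes, Rpl27a had the most negative difference. It encodes a core protein of the large subunit, and its start window carries the longest tract printed above. It read 1.28, 2.31, 2.13, 2.08 and 2.10 in unloaded mice, against 2.53, 2.04, 2.50, 2.38 and 2.62 in control mice. Unloaded 1 was far below the other unloaded mice, and control 2 lay among the unloaded values. The difference was −0.43 (SE 0.18, adjusted p = 0.278), −0.26 without unloaded 1 and −0.72 with slide as a block. A dim second Rpl27a probe differed by −0.24 (SE 0.10).

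The genes of the ribosomal stalk, the arm of the large subunit that recruits elongation factors, had small positive differences that did not pass the test. Rplp1 read 7.68, 7.75, 7.84, 7.75 and 7.79 in unloaded mice, against 7.49, 7.54, 7.61, 7.55 and 7.76 in control mice. Control 5 was within the unloaded range and the other controls were below it. Its difference was 0.17 (SE 0.09, adjusted p = 0.332), and 0.000519 with slide as a block. Rplp2 differed by 0.09 and Rplp0 by 0.08, and both were negative with scaling to the array median, with spike-in scaling and with slide as a block, as was Rplp2 with quantile normalization.

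Rpl32 had the largest positive difference of the large subunit at 0.21 (SE 0.12), and −0.06 with slide as a block. Rpl38, whose loss alters the axial skeleton of mice, read 6.65, 6.80, 6.83, 6.78 and 7.03 in unloaded mice and 6.67, 6.52, 6.62, 6.54 and 6.91 in control mice. The groups overlapped, with a difference of 0.17 (SE 0.10, adjusted p = 0.411). Rpl24, a second gene whose mutation gives skeletal defects in mice, differed by −0.05 (SE 0.13, adjusted p = 0.845).

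Rpl5 and Rpl11, which with a small ribosomal RNA form a particle that binds the p53 regulator Mdm2, differed by −0.05 (SE 0.13) and 0.11 (SE 0.11). Rpl23, which also binds Mdm2, differed by −0.17 (SE 0.12), and Rpl35a by −0.19 (SE 0.11). Rpl13a, known in human myeloid cells for a second role in silencing inflammatory mRNAs, differed by 0.09 (SE 0.18) and by −0.00616 with scaling to the array median. None of these genes passed the test.

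Some ribosomal proteins have a paralog, and 5 of these were in the group. Rpl3l, which replaces Rpl3 in skeletal muscle and heart, read 0.20, −0.66, −0.59, −0.67 and −0.87 in unloaded mice, against −0.58, 0.36, 0.18, −0.34 and −0.39 in control mice. Unloaded 1, control 2 and control 3 stood above the other arrays. The mean of 17 skeletal muscle markers was 3.89, 2.96, 3.24, 2.97 and 2.82 in unloaded mice and 2.61, 3.90, 3.72, 3.34 and 2.99 in control mice. The same 3 arrays, unloaded 1, control 2 and control 3, were the highest in muscle markers, and the part of muscle RNA in the level of Rpl3l was not tested.

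The difference of Rpl3l was −0.36 (SE 0.21, adjusted p = 0.381), −0.54 without unloaded 1, −0.24 without control 2 and 0.04 with slide as a block. Its parent gene Rpl3 differed by 0.06 (SE 0.14). Rpl22l1 and its parent Rpl22, which binds and lowers the paralog's mRNA in mouse cells, differed by −0.06 (SE 0.12) and −0.15 (SE 0.12). Rpl36al differed by −0.18 (SE 0.16) beside 0.09 (SE 0.11) for Rpl36a. Rpl7l1 differed by −0.10 beside −0.02 for Rpl7, and Rps27l by −0.08 beside 0.09 for Rps27. These values are from the brightest probe of each gene, and dimmer probes of the parents did not all keep the contrast. The dimmer Rpl36a probes differed by 0.08 and −0.11, the dimmer Rpl7 probes by −0.22 and −0.16, and a dimmer Rpl22 probe by 0.20. None of the 5 paralogs passed the test, and the difference of Rpl22l1 was 0.13 over all its probes and 0.00376 without control 1. Parent genes have many processed pseudogenes, and probe sequences were not used here, so the share of signal from near-identical copies is not known.

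Several genes had more than 1 probe, so the differences of their probes could be compared. The causes of disagreement between probes were not tested. There were 41 genes with 1 probe, 26 with 2, 12 with 3 and 1 with 4. The probes of 18 of the 39 genes with several probes all had the same sign of difference (46.2%), against 51.1% of the 8278 tested genes with several probes. For pairs of probes the counts were 14 of 26 (53.8%) against 61% of all genes with a pair. The range between the probes of a gene had a median of 0.19 log2 units in the ribosomal protein genes and 0.20 in all genes. The SE of a probe's difference had a median of 0.12 over the ribosomal protein probes and 0.12 over all tested probes. Probes of a gene share the same animals.

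Among the genes with several probes, Rps24 had the widest range, 0.57, between a probe at −0.38 (SE 0.11, adjusted p = 0.231) and one at 0.19 (SE 0.11), both on cDNA clones and both below the array's 75th percentile. Rps19 followed with 0.55, Rps18 with 0.54, and Rpl11 and Rpl35a with 0.44 each. For Rpl11 the bright RefSeq probe differed by 0.11 and a dim clone probe by −0.33 (SE 0.14).

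Of the 133 probes, 112 were designed on RefSeq mRNAs, with a median level of 5.10, and 21 on other cDNA or EST accessions, with a median level of −1.24. At an unadjusted p below 0.05 there were 6 of the 21 clone probes (28.6%) and 5 of the 112 RefSeq probes (4.46%), against 16.1% of all tested probes. Among the clone probes, 15 lay below the array's 75th percentile, against 7 of the RefSeq probes. The brightness and the design of the probes thus largely differ together, and the part of each in these shares was not tested. A dim clone probe of Rps12, at −1.36 ± 0.08 in unloaded and −1.08 ± 0.09 in control femurs (SD, n = 5 each), was the only ribosomal protein probe with all unloaded values below all controls, against 1.65% of all tested probes; the brightest Rps19 probe was the only one with all above, against 1.51%. The bright RefSeq probe of Rps12 differed by 0.05 (SE 0.08), and Rps12 was singled out after its values were seen.

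The probes of Rpl29, the gene with the most probes, agreed closely. They differed by −0.04, −0.06, −0.05 and −0.06, each with an SE of 0.12 or 0.13. They span levels from 1.24 to 3.43. Over RefSeq probes alone, 14 of 27 genes had probes of a single sign (51.9%), against 56.1% of all tested genes. Rpl7a had 3 RefSeq probes, which differed by 0.14 (SE 0.11), −0.01 (SE 0.12) and 0.36 (SE 0.11), the last with an unadjusted p of 0.00733 and an adjusted p of 0.246.

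**Figure D4:**
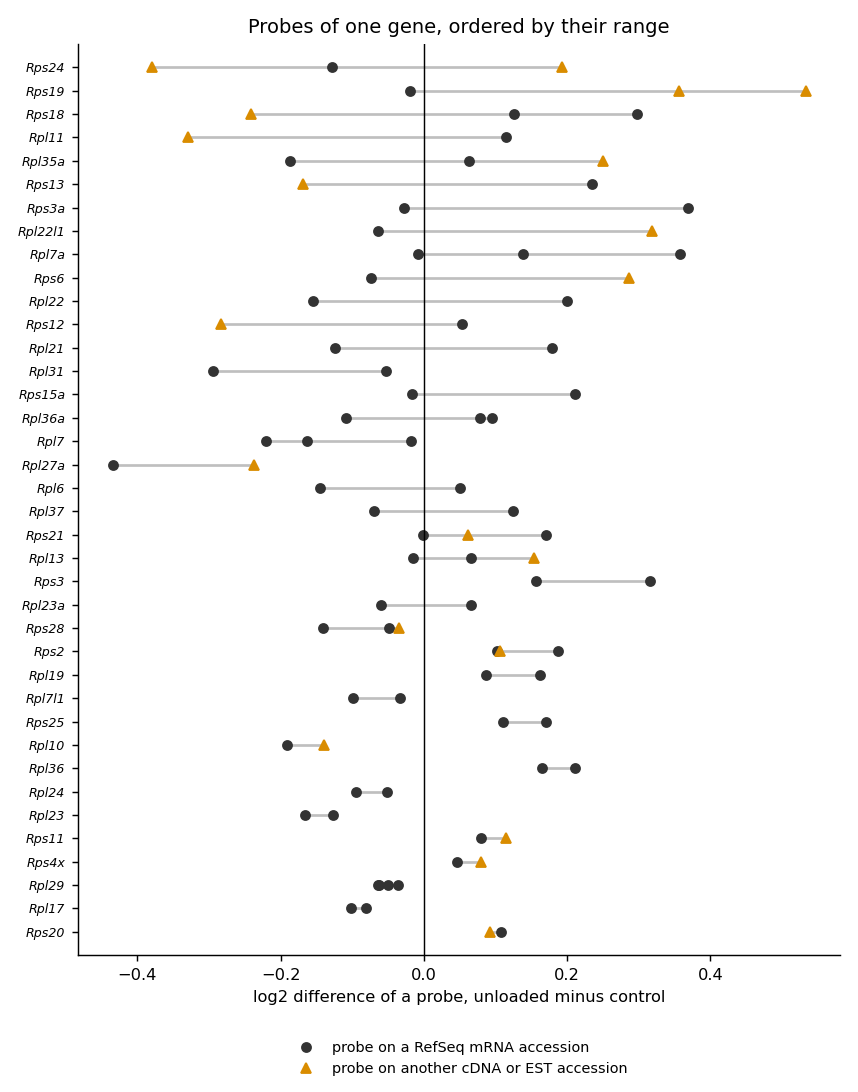
Log2 difference, unloaded minus control, of every probe of 38 ribosomal protein genes with several probes, ordered by the range between probes (grey line). Circles are probes on RefSeq mRNAs and triangles probes on other cDNA or EST accessions; the widest ranges, 0.57 for Rps24 and 0.55 for Rps19, include triangles, and the 4 probes of Rpl29 lie between −0.06 and −0.04.

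Single arrays moved many of the genes at once. Control 4 was the lowest of the 10 arrays for 34 of the 77 genes measured on all arrays, and unloaded 1 for 14. Control 3 was the highest for 23. Unloaded 5 was the highest for 24 genes and the lowest for 15. The deviations of the 77 genes from their means over the arrays had an SD of 0.357 log2 units on unloaded 5 and of 0.107 to 0.176 on the other 9 arrays. It also had the lowest share of spots well above background, 89.8%. Rpl21, picked out after its values were seen, read 3.58, 4.08, 3.11, 3.90 and 1.57 in unloaded mice and 3.30, 3.35, 3.29, 3.13 and 3.80 in control mice. Unloaded 5 was lowest at this probe, the brightest of Rpl21, by more than 1 log2 unit. The difference at this probe was −0.12 (SE 0.37), with the widest interval of the group. A dim second Rpl21 probe read −1.20 in unloaded 5, the highest of the 10 arrays, and differed by 0.18 (SE 0.12).

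Some ribosomal protein genes carry other names in the scanner files and so fell outside the rule. The probes named Arbp, an older name of Rplp0, differed by 0.11 (SE 0.09) and 0.10 (SE 0.12), beside 0.08 for the Rplp0 probe in the group. The probes of Rpl34 differed by −0.01 and −0.06, and Rps4l by 0.31 (SE 0.17, adjusted p = 0.367). Rpsa, the small subunit protein also known as a laminin receptor, differed by 0.23 (SE 0.16) and 0.16 (SE 0.09). Fau, which encodes a ribosomal protein fused to a ubiquitin-like protein, differed by 0.18 (SE 0.12). None of these probes passed the test.

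The genes that build, regulate or resemble the ribosome were read beside its protein genes. In the mTOR list, 1 of 22 genes passed the test, Ddit4, whose protein restrains mTOR under stress. Ddit4 read 4.86, 4.32, 4.84, 4.80 and 4.82 in unloaded mice, against 3.57, 3.45, 3.82, 3.48 and 3.46 in control mice, with no overlap. It rose by 1.17 (SE 0.12, adjusted p = 0.00794), and its adjusted p was 0.0511 with body weight as a covariate and 0.267 with slide as a block. The 80 ribosomal protein genes had intervals within 1 log2 unit of 0 in the same fit.

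The other 21 mTOR genes did not pass, among them Eif4ebp1, Eif4ebp2 and Eif4ebp3, which encode repressors of translation initiation, at 0.15 (SE 0.12), −0.37 (SE 0.17) and −0.31 (SE 0.12). Other genes of the list had smaller p-values than Eif4ebp1. Eef2k, of the same list, differed by 0.18 (SE 0.09, adjusted p = 0.321) with all unloaded values above all controls. That held for 1.5% of all tested genes. Eif4ebp1 was 0.23 without unloaded 1 and 0.09 without control 4, and Eif4ebp2 was −0.19 without unloaded 5. None of 42 ribosome biogenesis genes passed, with 13 positive and 29 negative differences and a median of −0.04. The smallest p there belonged to Taf1d, a subunit of the RNA polymerase I factor SL1, at −0.53 (SE 0.13, adjusted p = 0.218) with all unloaded values below all controls. Unloaded values lay below all controls in 1.8% of all tested genes. Rrp12, Nop58 and Heatr1, which act in making the subunits, differed by 0.32 (SE 0.11), −0.24 (SE 0.10) and −0.35 (SE 0.14), and Heatr1 by −0.22 without unloaded 5.

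None of 41 other TOP mRNA and translation factor genes passed, with 20 positive and 21 negative differences and a median of −0.01. The initiation factor genes Eif4a2, Eif3a, Eif5 and Eif4g2 had the smallest p-values there, with differences of −0.37 (SE 0.10), −0.43 (SE 0.12), −0.40 (SE 0.13) and −0.40 (SE 0.14) and adjusted p-values between 0.218 and 0.257. None of 78 mitochondrial ribosomal protein genes passed, with 30 positive and 48 negative differences and a median of −0.02. The medians of these lists stand beside 0.05 for small subunit genes, 0.01 for large subunit genes and 0.05 for all tested genes, and no list was tested against another. Among the ribosomal protein genes with a listed start, the 28 with a tract in the window had a median difference of 0.02. The 32 without one had 0.06.

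**Figure D5:**
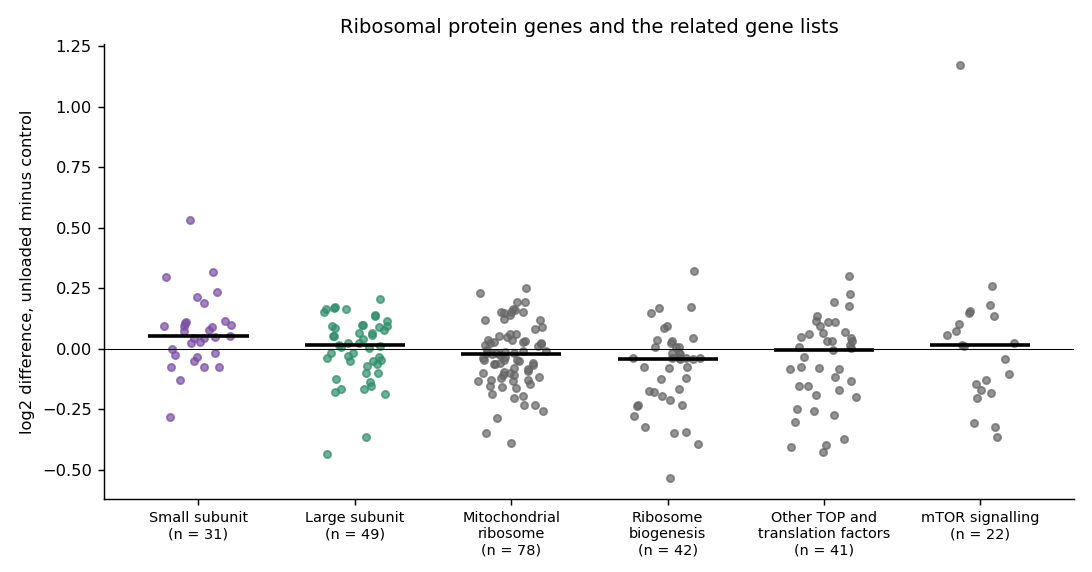
Log2 difference, unloaded minus control, of each small subunit gene, large subunit gene and gene of 4 related lists, 1 point per gene, with black lines for the medians. The medians lie between −0.04 and 0.05, and the point at 1.17 in the mTOR list is Ddit4.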

How the data were processed

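Femur RNA of 5 unloaded and 5 control mice was hybridised to single-colour arrays, 1 per animal. Per the file headers, the deposited scanner files hold spot intensity on a linear scale from Agilent Feature Extraction 9.1.3.1 (protocol GE1-v5_91_0806, design 014868), background-subtracted and detrended within arrays. The authors' deposited series matrix held the same linear intensity, rounded, uncentred and with no direction: its ratios to the processed signal ran from 0.995 to 1.005, and its column medians were 253 to 315 for unloaded and 261 to 335 for control arrays. It was an alternative.

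Here the log2 signals of repeated spots were averaged, 97 spots marked as outliers were left out, and the array's 75th percentile was subtracted from the log2 values computed from the deposited signals. That percentile, taken over the probe averages, was 637 to 903 in intensity. The test took the 38629 probes that were well above background on 4 or more arrays in either group and had a value on 3 or more in both, and the brightest tested probe stood for a gene (18955 genes). Of the 80 genes, 3 lacked a value on some array and were left out of array means. The values of some genes are not reported here. The comparison used limma 3.58.1 (R 4.3.3), two-sided, without covariates, with Benjamini-Hochberg adjustment and a threshold of 0.05. The procedure was tested on simulated data. Sequences were matched with Python 3.11.15 and figures drawn with matplotlib 3.10.9. Symbols and start regions came from RefSeq (GRCm38.p6).

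The genes, the lists and the rule for named genes (largest and smallest differences, smallest p, widest probe range, paralogs with their parents, and a fixed set of well-known members) were chosen with earlier results of these data known. Per the labels each array is another animal, so p-values measure the spread between animals. Alternatives covered scaling, background correction, dim probes, variance model, array weights, body weight, slide, replicate number, probe choice, threshold and each array left out. Subsets of the genes in the comparison of subunits were added after seeing the data. The number of arrays limits the precision.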

Additional observations from a re-analysis of the deposited data

Results flagged for a closer look

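Of 74 groups of 5 values examined, 7 had 1 animal far from the other 4 of its group, with a gap above 0.71 of the group's range; chance gives about 1 in 20 such groups. Levels are log2 signals relative to the array's 75th percentile. In unloaded mouse 1, Rpl27a read 1.28, against 2.08 to 2.31 in the other unloaded mice, and Rpl3l read 0.20, against −0.87 to −0.59. In unloaded mouse 2, Ddit4 read 4.32, against 4.80 to 4.86 in the other unloaded mice. In control mouse 4, Rpl36al read 2.83, against 3.32 to 3.39 in the other controls, Rps19 read 4.31, against 4.66 to 4.76, and Rpl7l1 read 1.01, against 1.29 to 1.39. In control mouse 5, Rps13 read 6.77, against 6.32 to 6.45 in the other controls.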

How the results depend on the processing

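No ribosomal protein gene or probe was called under any alternative run, including an adjusted p threshold of 0.1. Probes called over the whole array were 1 in the main setting, 4 with spike-in scaling, 3 with a trended robust variance, 3 with slide as a fixed block, 0 with body weight as a covariate, and 1 to 2 with single arrays left out (2 without control 2). With the replicate number as a block, 0 ribosomal protein genes and 1 probe in all were called and the subunit difference stayed 0.07. Same-numbered animals correlated between −0.14 and 0.18 and none of the 5 best with its own number. The values thus gave no sign that the numbers pair animals, though 5 pairs are too few to settle it.

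Spike-in scaling moved the median of all genes by −0.16. The means over all 77 ribosomal protein genes measured on every array and over their small and large subunit genes were then −0.13, −0.085 and −0.16, and Rpl3 (−0.10), Rpl39 (−0.13), Rplp0 (−0.081), Rplp2 (−0.065), Rpl36a (−0.062), Rps27 (−0.064), Rpl13a (−0.068) and Rpl11 (−0.042) turned negative. The median of the 80 genes stayed within 0.02 of that of all genes with median, quantile, cyclic loess and spike-in scaling, and was −0.14 from it with slide as a fixed block. With slide as a fixed block the same means were −0.14, −0.092 and −0.18, and that fit turned Rpl32 (−0.060), Rpl36a (−0.076), Rps27 (−0.086), Rplp2 (−0.094), Rpl11 (−0.11), Rpl38 (−0.15), Rps14 (−0.15), Rpl3 (−0.15), Rps13 (−0.16), Rps3 (−0.19), Rpl39 (−0.21), Rplp0 (−0.24), Rpl13a (−0.26), Rpl3l (0.038) and Rps24 (0.056). It compares groups only on slide 2, with 1 control. Array median scaling turned Rpl36a (−0.000501), Rps27 (−0.00258), Rplp2 (−0.00325), Rpl13a (−0.00616), Rplp0 (−0.020), Rpl3 (−0.039) and Rpl39 (−0.070), and quantile normalization Rplp2 (−0.044). Body weight as a covariate turned Rps6 (0.0029), Rpl10 (0.0077), Rpl7 (0.00893), Rpl5 (0.043) and Rpl24 (0.043), and array weights Rpl5 (0.00149). The mean over all probes of a gene turned Rpl11 (−0.11), Rpl22 (0.023), Rpl35a (0.042), Rps6 (0.11) and Rpl22l1 (0.13). The causes were not tested.

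With single arrays left out, the mean over the 77 ribosomal protein genes ran from −0.027 to 0.074, small subunit from 0.021 to 0.12, large subunit from −0.058 to 0.044, and small minus large from 0.056 to 0.079. Signs turned for Rpl3 (−0.036 to 0.14), Rpl7 (−0.055 to 0.012), Rpl39 (−0.036 to 0.068), Rpl5 (−0.12 to 0.020), Rpl24 (−0.13 to 0.025), Rpl22l1 (−0.14 to 0.00376), Rps6 (−0.15 to 0.020), Rplp0 (−0.030 to 0.17) and Rpl13a (−0.035 to 0.21). Small minus large was 0.025 among genes at or above the median signal. Dim probes and 5 animals a group limit what could be detected.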
